A study of Saccharomyces cerevisiae with 4 samples.

Results

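The comparison described here set the array titled hsp30Δ 40 °C against the array titled BY4741 40 °C, gene by gene, over 5430 of the 5436 budding yeast genes with a named probe set. Both are Affymetrix expression arrays of Saccharomyces cerevisiae, 2 of the 4 arrays of the series, and the other pair holds the same strains at 30 °C. BY4741 is a MATa laboratory strain with the alleles his3Δ1, leu2Δ0, met15Δ0 and ura3Δ0. The second strain is labelled as BY4741 carrying hsp30Δ::kanMX, which puts a drug resistance cassette in place of HSP30, so it is named as sharing the parent's other alleles. Cells of both strains were taken in log phase in the rich medium YPD, at 30 °C or after 30 min at 40 °C. Each group is 1 array, so no value below has a spread between cultures, there is no test, and differences are given by size alone.

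HSP30 codes for a membrane protein of the yeast cell surface that heat, weak acids, ethanol and glucose limitation induce, and it is known as a negative regulator of the plasma membrane proton pump Pma1. A shift to higher temperature calls on the factors Hsf1, which drives chaperone genes, and Msn2 and Msn4, which drive general stress genes. While glucose is plentiful, the repressors Mig1, Mig2 and their relatives hold genes for other carbon sources down. When it runs short the kinase Snf1 relieves that repression, and the activators Cat8 and Sip4 switch on gluconeogenesis and the glyoxylate cycle.

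HSP30, the gene that the second strain is labelled as lacking, was not low on the array labelled hsp30Δ. It read 14.18 log2 units on BY4741 40 °C and 15.91 on the array labelled hsp30Δ 40 °C, a 3.33-fold higher value, and at 30 °C the same pair read 15.51 and 15.18. The place of its probes on the gene was not checked here. If they lie outside the stretch that was removed, their signal says nothing about the deletion. Unless the probes lie outside that stretch, the HSP30 value goes against the label. Every direction below is therefore that of the array labelled hsp30Δ, and with 1 array a group no value can be given without that array. MET17, the current name of the gene also called MET15, read 1.95 on all 4 arrays, the lowest value in the data, while LEU2 and URA3 have no gene value here. HIS3 read 10.22 on BY4741 40 °C and 10.15 on the array labelled hsp30Δ 40 °C. PMA1 read 13.87 and 14.46, a difference of 0.59 log2 units that is within 2-fold. The markers of the MATa mating type were read on both arrays: all 7 a-specific genes were measured, between 11.50 and 14.59 on BY4741 and between 11.22 and 14.45 on the array labelled hsp30Δ, with 0 past 2-fold. The 4 alpha-specific genes lay between 2.61 and 10.71 on BY4741 and between 3.69 and 10.82 on the other array, where 1 was past 2-fold.

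At 40 °C, 364 genes (6.7% of the 5430) read higher on the array labelled hsp30Δ by 2-fold or more, and 195 (3.59%) read lower by that much. The median difference over all genes was 0.00 log2 units, and the middle 50% of genes lay between -0.38 and 0.38. Differences upward reached further. The 4-fold mark was passed by 109 genes upward and by 9 downward, and the 16-fold mark by 18 upward and by 0 downward. Of the genes at least 2-fold apart, 65.1% were higher as deposited. After quantile normalization over the 4 arrays the same share was 53.5%, with 322 genes higher and 280 lower. The largest difference upward, 6.82 log2 units, belonged to the small reading frame YBR182C-A, and the largest downward, -3.48, to PCK1, which codes for the gluconeogenic enzyme PEP carboxykinase.

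**Figure D1:**
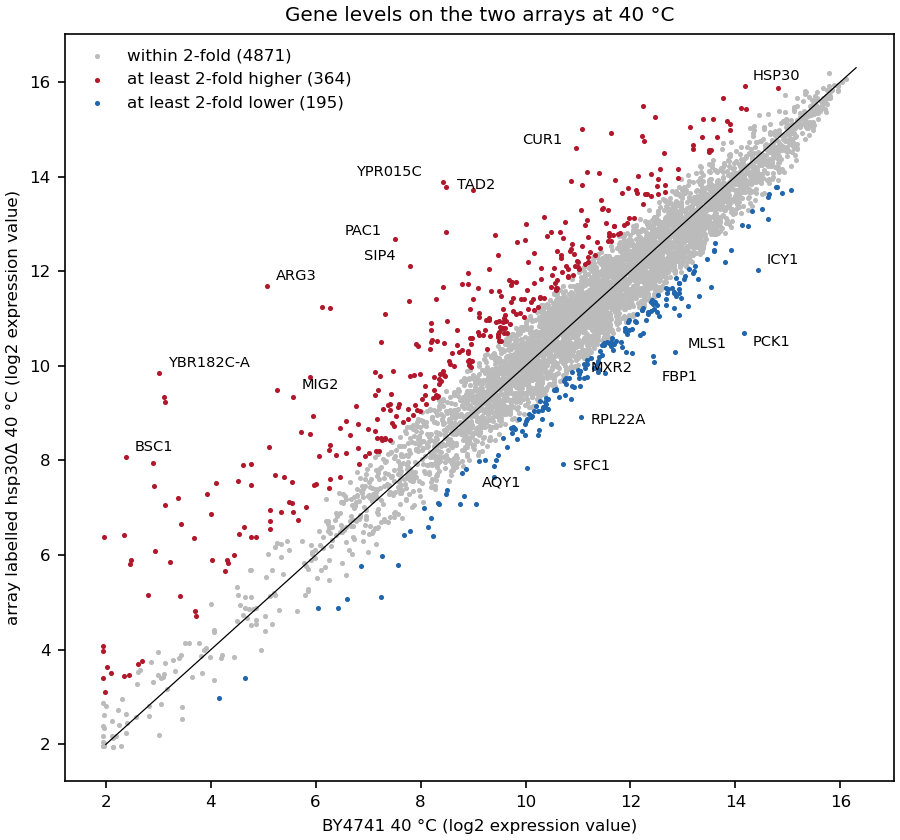
Level of each of the 5430 genes on the BY4741 40 °C array (horizontal axis, log2 expression value) and on the array labelled hsp30Δ 40 °C (vertical axis, log2 expression value). Each point is 1 gene, the line marks equal values, and colours mark the 364 genes called higher and the 195 called lower. The points farthest above the line belong to genes that were dim on BY4741, while PCK1 and other genes of gluconeogenesis lie farthest below it.

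The difference moved with gene length and, less, with level, and both touch the gene groups below. Length is that of the reference gene model, for 97.0% of genes a multiple of 3, and so close to coding length. With the genes set into 5 bins of near-equal size by length, from the shortest to the longest, the median difference went from -0.34 through -0.21, -0.03 and 0.10 to 0.30 log2 units. The shortest bin (51 to 660 bases) held 104 of the 195 lower genes, or 53.3%, and the longest (2112 to 14733 bases) held 5. The Spearman correlation of length with the difference was 0.35 across genes, which are not independent replicates, against 0.04 for the strain difference at 30 °C. For the heat difference within BY4741 the medians of the shortest and longest bins were 0.33 and -0.11, and for heat on the arrays labelled hsp30Δ they were -0.06 and 0.01. When the smooth trend with length was taken out, a setting chosen after seeing the data, 410 genes were higher and 102 lower. Of the genes called as deposited, 330 of the higher and 87 of the lower were called again, and all 25 highest and all 25 lowest genes stayed past 2-fold. By level, again in 5 bins, the dimmest held 150 of the higher genes and the brightest 40. Whether RNA quality, labelling or normalization had a part in the trend with length was not tested, and the median corrected for length is given beside most list medians below. Counts of list members are to be read against the shares over all genes, 6.7% higher and 3.59% lower.

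**Figure D2:**
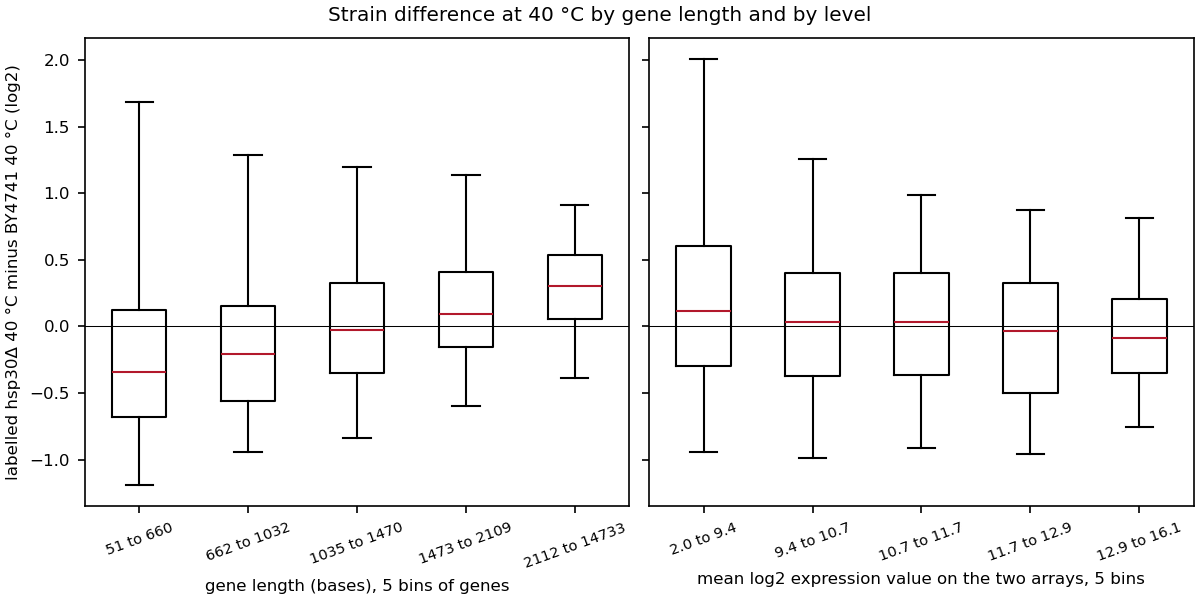
Difference between the arrays at 40 °C (vertical axis, array labelled hsp30Δ minus BY4741, log2) in 5 bins of genes, on the left by gene length in bases and on the right by mean log2 expression value. Boxes span the middle 50% of genes with the median as a red line, and whiskers reach the 5th and 95th percentiles. The medians climb from -0.34 in the shortest to 0.30 in the longest bin of lengths.

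Genes of gluconeogenesis, the glyoxylate cycle and the uptake of acetate and lactate were the group that lay lowest on the array labelled hsp30Δ 40 °C. Of 27 measured members 12 were at least 2-fold lower (44.4%, against 3.59% of all genes) and 1 was higher, with a median of -0.61 log2 units, or -0.71 corrected for length. These genes let the cell build sugar from compounds such as acetate, lactate and fatty acids. PCK1 read 14.16 on BY4741 40 °C and 10.69 on the array labelled hsp30Δ 40 °C, an 11.1-fold difference. The 30 °C arrays lay the other way round, at 10.04 for BY4741 and 13.65 for the labelled hsp30Δ array, so PCK1 was high on BY4741 40 °C and on the array labelled hsp30Δ 30 °C and low on the remaining arrays. MLS1, the malate synthase of the glyoxylate cycle, went from 12.85 to 10.29 (5.89-fold lower), against 9.54 and 12.84 at 30 °C. FBP1, fructose bisphosphatase, read 12.44 and 10.08 (5.12-fold lower), against 9.99 and 12.01 at 30 °C. Both thus had the order seen for PCK1. SFC1, the mitochondrial carrier that exchanges succinate for fumarate, read 10.71 and 7.93 (6.84-fold lower), and ICL1, isocitrate lyase, 13.09 and 11.27 (3.53-fold lower). JEN1, the lactate and pyruvate transporter, read 13.80 and 12.20 (3.02-fold lower), although its 30 °C values, 8.89 and 13.56, were much further apart in the opposite direction. At 30 °C the whole list had a median of 2.62 log2 units, and on the array labelled hsp30Δ 22 of the 27 members were higher there and 0 lower.

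The remaining called members of that list were CIT2 and CIT3, citrate synthase genes (-1.34 and -1.75), the acetate transporter gene ADY2 (-1.72), the acetyl-CoA synthetase gene ACS1 (-1.25), the glyoxylate aminotransferase gene AGX1 (-1.15) and the carnitine acetyltransferase gene YAT2 (-1.10). PDH1, the neighbour of CIT3 and like it tied to propionate breakdown, was 3.07-fold lower. Genes outside the list that, like PCK1, were lower at 40 °C and higher at 30 °C included RGI2, needed for energy metabolism under respiration, at 12.93 and 11.08 at 40 °C, against 9.16 and 13.22 at 30 °C. SHH3 and SHH4, relatives of succinate dehydrogenase subunit genes, were 3.35-fold and 3.07-fold lower. Of 25 measured genes of beta-oxidation and the peroxisome, 4 were at least 2-fold lower, where 3.59% of all genes were, and 0 higher, with a median of -0.20, or -0.25 corrected for length. These were the thiolase gene POT1 (-1.54), the isomerase gene ECI1 (-1.52), PEX11 (-1.31), which acts in peroxisome division, and the thioesterase gene TES1 (-1.04).

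The regulators of these genes did not move as a block. SIP4, the activator of gluconeogenic genes that Snf1 controls, was the single member of the carbon list that was higher, at 7.80 on BY4741 40 °C and 12.10 on the array labelled hsp30Δ 40 °C, a 19.7-fold difference. At 30 °C it read 3.99 and 12.07, so it was high on both arrays labelled hsp30Δ. CAT8, the other activator, read 14.01 and 13.89 at 40 °C, and ADR1, the activator of peroxisomal and ethanol genes, 12.85 and 13.07. Neither differed by 2-fold. The 21 measured genes of the Snf1 and Mig1 pathway held 5 higher genes (23.8%, against 6.7% of all genes) and no lower one. Their median was 0.15, or -0.02 corrected for length. MIG2, a repressor gene that glucose switches on, read 5.57 on BY4741 40 °C and 9.33 on the array labelled hsp30Δ 40 °C, a 13.6-fold difference, against 8.86 and 7.77 at 30 °C. NRG1 and NRG2, genes of a pair of repressors that act beside Mig1, were 4.67-fold and 3.23-fold higher. MIG3, their relative, was 2.51-fold higher, and TOS3, which codes for a kinase that activates Snf1, was 5.04-fold higher. MIG1 itself read 12.42 and 12.86.

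**Figure D3:**
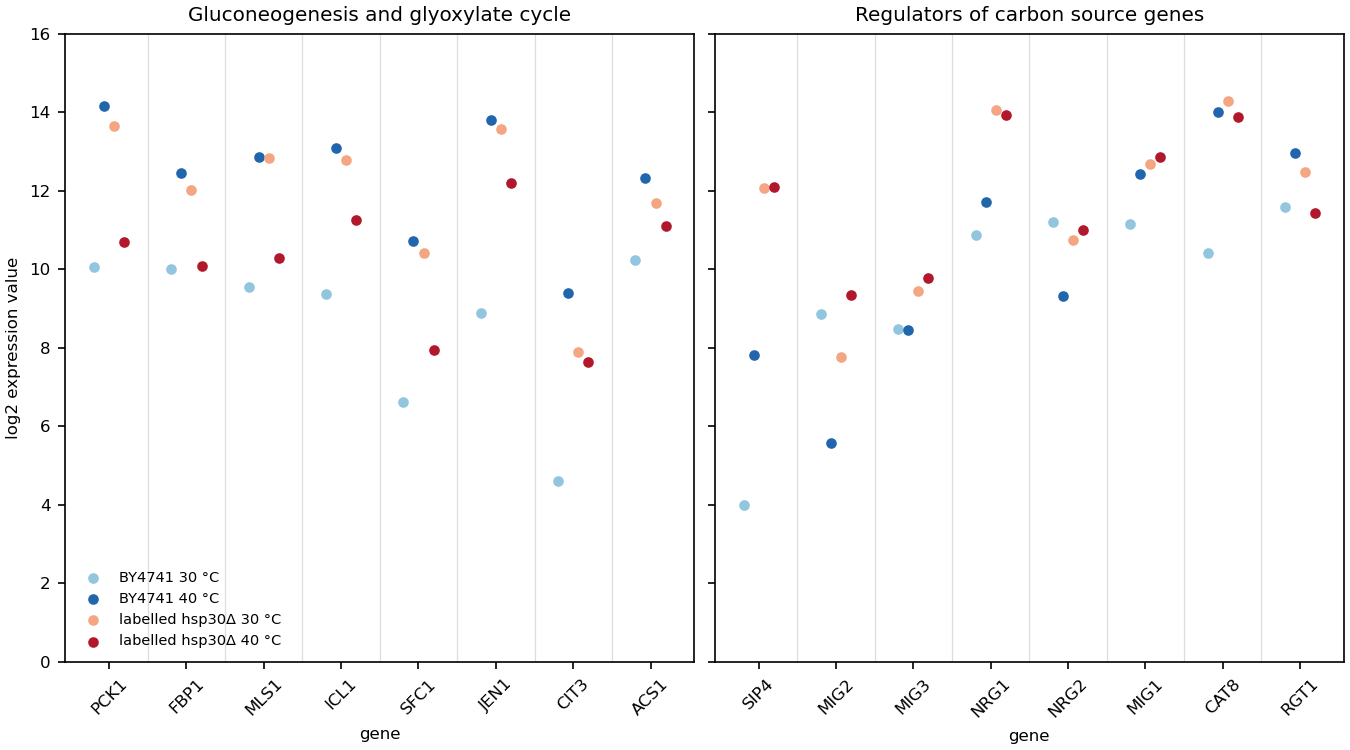
Log2 expression value (vertical axis) of 8 genes of gluconeogenesis, the glyoxylate cycle and the uptake of carbon compounds (left) and of 8 regulators (right) on each of the 4 arrays. Each point is 1 array. On the left BY4741 40 °C lies above the array labelled hsp30Δ 40 °C for all 8 genes, while on the right MIG2 goes from 5.57 to 9.33 and CAT8 stays near 14.01.

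Few genes of glucose transport and breakdown were past 2-fold with the probe sets read here. Of 22 measured genes of hexose transport and glucose sensing 1 was higher and 2 were lower (9.09%, against 3.59% of all genes), with a median of 0.26, or 0.11 after quantile normalization and 0.17 corrected for length. HXT5, a hexose transporter gene of slowly growing cells, read 11.30 and 9.94, and RGT1, the repressor of hexose transporter genes, 12.96 and 11.44. STD1, which acts with Rgt1 in glucose sensing, was 2.23-fold higher. HXT17 and HXT13 were read from probe sets marked for shared sequence, with differences of 0.11 and -0.49 log2 units. Their other probe sets differed by 2.54 and -1.66, both past 2-fold, so the counts for this list depend on the choice of probe set. Among 14 glycolysis genes 0 passed 2-fold in either direction (median -0.01, or 0.01 after quantile normalization and 0.12 corrected for length), and the phosphofructokinase genes PFK1 (0.53) and PFK2 (0.49) had the largest differences. The median level of these 14 was 15.405 on BY4741 40 °C and 15.355 on the array labelled hsp30Δ 40 °C. The highest values on those arrays were 16.11 and 16.19, which leaves little room for a difference. No equality is therefore read from the glycolysis genes.

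Many chaperone genes read near the top of the scale on both arrays, whose highest values were 16.11 and 16.19. HSP26 read 16.11 and 16.07, HSP104 15.73 and 15.71, SSA4 15.68 and 15.88, and HSP82 15.46 and 15.61. Levels this close to the highest values leave little room for a difference, so no equality between the arrays is read from these major heat shock genes. CUR1, which helps to sort misfolded proteins to the nucleus, read 10.97 on BY4741 40 °C and 14.61 on the array labelled hsp30Δ 40 °C, a 12.5-fold difference, and 10.67 and 14.61 at 30 °C. AHA1 and HCH1, which code for activators of the Hsp90 ATPase, were 3.55-fold and 3.76-fold higher. Among 20 Hsp70s, J-proteins and exchange factors, 5 were higher, where 6.7% of all genes were, and 1 lower, with a median of 0.30. Corrected for length 4 were higher and 0 lower, with a median of 0.16. The J-protein genes JJJ3 (10.7-fold), APJ1 (3.11-fold), YDJ1 (2.51-fold) and HLJ1 (2-fold) and the Hsp70 gene SSA2 (2.09-fold) were higher, and SNL1, for a membrane protein that binds Hsp70, was 2.07-fold lower. ERO1, which codes for the oxidase that drives disulfide formation in the endoplasmic reticulum, read 12.46 and 15.25, a 6.90-fold difference. The 19 folding genes of that compartment had a median of 0.03, or -0.0034 after quantile normalization and -0.03 corrected for length. The prolyl isomerase gene FPR2 was 2.18-fold lower, though corrected for length its difference was -0.74 log2 units, within 2-fold. MDJ1, the mitochondrial J-protein gene, was 2.29-fold higher.

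Of 19 transcription factors of the stress response 2 were higher (10.5%, against 6.7% of all genes) and 0 lower. Their median was 0.22, or 0.11 corrected for length, and 13 lay above 0. HSF1 read 12.00 and 12.31, MSN2 11.04 and 11.35, and MSN4 13.35 and 13.17. GCN4, the activator of amino acid genes, read 15.34 and 15.33, and MET4, that of sulfur genes, 12.17 and 12.60. Past 2-fold in the list of 19 such factors were HAA1, an activator of the weak acid response (11.53 and 13.02), and CIN5, which acts in salt and drug tolerance (9.55 and 10.81). General stress genes had a median of -0.09 over 32 members, or 0.01 corrected for length, 2 of them past 2-fold and both lower: GRE1 (13.53 and 11.68) and SIP18 (14.62 and 13.11), which code for small hydrophilic proteins of desiccation. The median level of the 32 was 15.37 on BY4741 40 °C and 15.21 on the array labelled hsp30Δ 40 °C. These levels are close to the highest values, 16.11 and 16.19. No equality between the arrays is read from general stress genes at such levels, nor from GCN4. In the oxidative defence list 4 of 35 were lower (11.4%, against 3.59% of all genes) and 1 was higher (2.86%, against 6.7%), with a median of -0.28, or -0.02 corrected for length. MXR2, the mitochondrial methionine sulfoxide reductase gene, was 4.67-fold lower, and SRX1, for sulfiredoxin, 3.08-fold higher.

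Genes of membrane transport held several higher members. Of 25 measured genes of multidrug and weak acid transport 7 were higher, where 6.7% of all genes were, and 2 were lower, with a median of 0.44, or 0.24 corrected for length. TPO2 was read from a probe set marked for shared sequence, with a difference of 0.44. Its other probe set differed by 1.07, past 2-fold, so the count of higher genes depends on the choice of probe set. RSB1, which acts in the release of sphingoid bases, read 12.57 and 14.17. TPO1 and TPO4, polyamine transporter genes, were 2.77-fold and 2.27-fold higher. PDR12, the pump that exports weak organic acids, read 12.32 and 13.64, against 13.77 and 13.17 at 30 °C. PDR1, the activator of multidrug genes, read 11.35 and 11.85, and its target PDR5 13.14 and 13.65, so both stayed within 2-fold. In the list of 23 proton pump, pump regulator and ion transport genes 19 lay above 0 with a median of 0.44 (0.23 corrected for length), although SOP4, a quality control gene of Pma1 transport, was alone past 2-fold, at 2.28-fold. Vacuolar proton ATPase genes lay the other way: 15 of 21 were below 0 with a median of -0.34 (-0.20 corrected for length). The assembly factor gene VMA22 was alone past 2-fold, at 2.34-fold lower, and corrected for length 0 of the 21 were. No member of the eisosome and Hsp30 relatives list other than HSP30 passed 2-fold; the relatives YRO2 (-0.04) and MRH1 (0.05) were close to equal.

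Genes of mitochondria, the proteasome and the ribosome lay slightly lower as groups, and these lists hold short genes. The 69 measured mitochondrial ribosomal protein genes had a median of -0.56, with 10 lower (14.5%, against 3.59% of all genes) and 0 higher. Their median length was 660 bases against 1237 for all genes. Corrected for length their median was -0.29 and 0 were past 2-fold. MRP21 (11.82 and 10.49), MRPL25 (12.92 and 11.63) and MRPS12 (14.24 and 12.95) had the largest differences. Mitochondrial protein import (32 genes, 2 or 6.25% lower) had a median of -0.47, or -0.22 corrected for length. TIM8, one of the small import chaperone genes, was 2.19-fold lower. ATP synthase (20 genes, 2 or 10.0% lower) had a median of -0.45, or -0.24 corrected. The median length of the ATP synthase genes was 429 bases, and in the bin of the shortest genes 9.57% were lower. Corrected for length 0 genes of protein import and 0 of ATP synthase were past 2-fold. The respiratory chain had all 25 genes below 0 with a median of -0.30, or -0.13 corrected, and COX9, a cytochrome oxidase subunit gene, alone was past 2-fold as deposited.

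In the proteasome list 30 of 31 genes were below 0 with a median of -0.40 (-0.26 corrected for length) and 0 passed 2-fold. RPN4, which codes for the activator of proteasome genes, read 14.46 on BY4741 40 °C and 15.30 on the array labelled hsp30Δ 40 °C, so it lay above 0 while its targets lay below. Autophagy genes had a median of -0.32 over 32 members (-0.16 corrected), with ATG16 (2.67-fold) and ATG17 (2.26-fold) lower. ATG41, which acts in the growth of autophagosomes, was 6.25-fold higher, at 12.22 and 14.86.

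**Figure D4:**
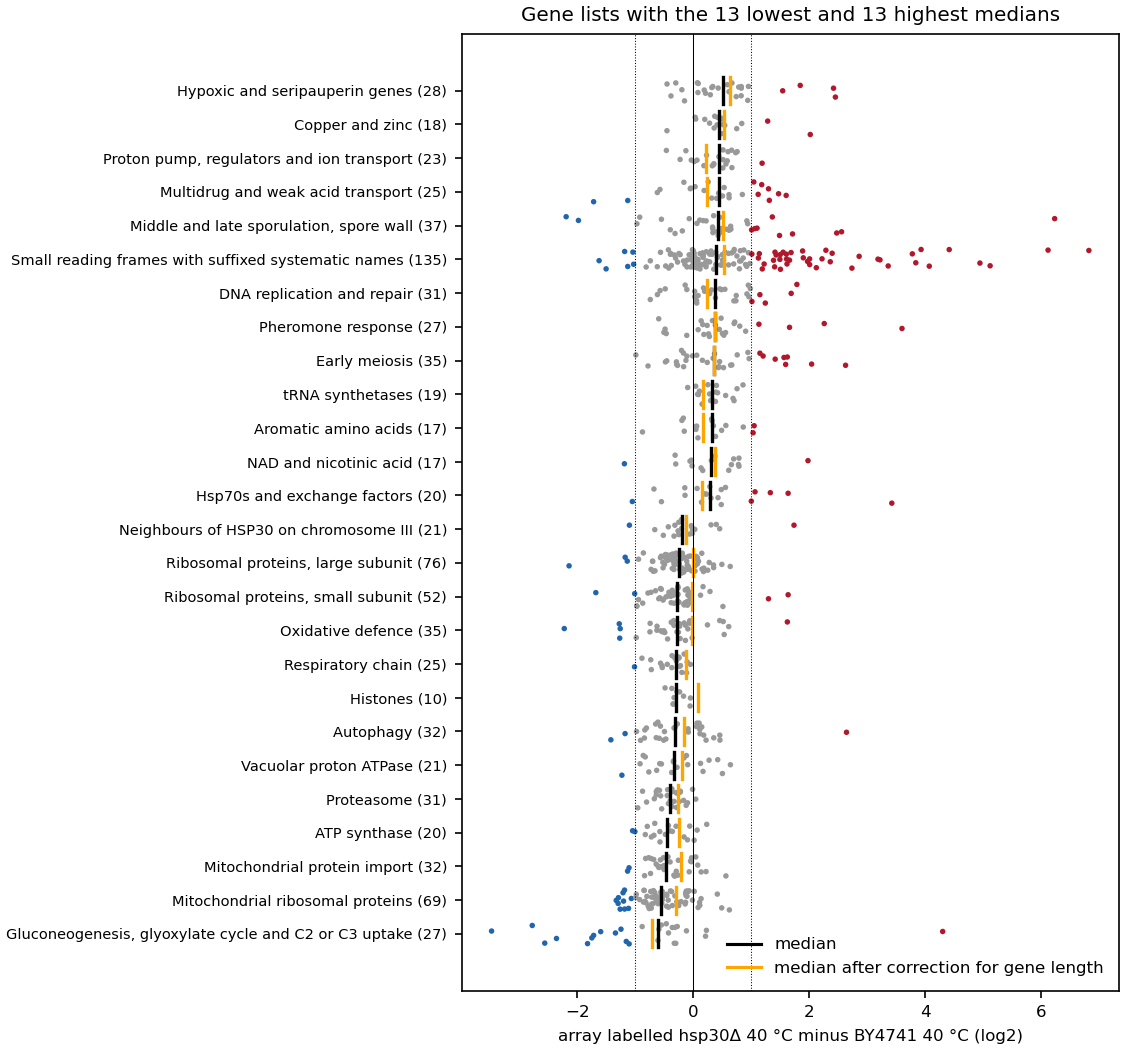
Difference between the arrays at 40 °C (horizontal axis, array labelled hsp30Δ minus BY4741, log2) for the members of the 13 gene lists with the highest and the 13 with the lowest medians, with the number of measured members in brackets. Each point is 1 gene, coloured where it is past 2-fold (dotted lines), black bars are medians and orange bars are medians after correction for gene length. The orange bars of histones and of large-subunit ribosomal proteins lie above 0, at 0.08 and 0.00, where the black bars lie at -0.31 and -0.24.

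Cytosolic ribosomal protein genes had medians of -0.24 (76 large-subunit genes) and -0.27 (52 small-subunit genes), and these went to 0.00 and -0.02 with the correction for length. Histone genes went from -0.31 to 0.08. Against this, single ribosomal protein genes moved apart from their duplicate copies. RPL22A read 11.05 and 8.91, a 4.41-fold lower value, while its copy RPL22B read 9.71 and 9.99. RPS9A was 3.11-fold higher (9.09 and 10.72) and RPS9B 3.20-fold lower (11.52 and 9.85). RPS14B was 2.46-fold higher (9.52 and 10.82), and RPS14A read 14.05 and 13.72. Of 48 measured pairs of copies 5 differed by more than 1 log2 unit, and the median gap was 0.26. Copies are near-identical in sequence, so their probe sets may share signal and the sizes are uncertain.

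Ribosome assembly genes held large single differences with medians near 0 (0.17 for the small and -0.08 for the large subunit). After quantile normalization these were -0.08 and -0.31, and corrected for length 0.08 and -0.15. MRT4, an assembly factor of the ribosomal stalk, was 6.82-fold higher, at 9.84 and 12.61. YTM1 (7.38 and 9.16) and the small-subunit factor genes EMG1 (8.55 and 10.05) and NOC4 (7.53 and 8.95) were also higher. REI1 (7.58 and 5.79), DBP9 (8.14 and 6.59), RIX1 (4.15 and 2.97) and EBP2 (9.80 and 8.67) were lower. RPC17, an RNA polymerase III subunit gene, was 7.94-fold higher, at 5.94 and 8.93. YAR1, which codes for a chaperone of the ribosomal protein Rps3, read 11.08 and 15.01, a 15.3-fold difference. TAD2, a subunit gene of the tRNA adenosine deaminase, read 8.49 and 13.77, a 38.9-fold difference. None of the 19 tRNA synthetase genes passed 2-fold, and 18 lay above 0 (median 0.32, or 0.17 corrected for length).

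Several genes of amino acid, nucleotide and lipid synthesis stood far from the rest of their pathways. ARG3, the ornithine carbamoyltransferase gene of arginine synthesis, read 5.08 on BY4741 40 °C and 11.69 on the array labelled hsp30Δ 40 °C, a 97.6-fold difference, and 7.55 and 12.40 at 30 °C. The 19 arginine genes nevertheless had a median of 0.14, or 0.20 corrected for length. CPA1, a carbamoyl phosphate synthetase subunit gene, was 4.21-fold higher, and ARG80, which codes for a regulator of arginine genes, 3.19-fold lower. In sulfur metabolism MET14, the gene of adenylylsulfate kinase, was 4.98-fold higher, the methionine permease gene MUP3 5.09-fold higher, and the sulfate permease gene SUL1 2.88-fold lower, with a median of 0.14 over 32 genes, or 0.19 corrected for length. ILV2, for the enzyme that starts branched-chain synthesis, read 11.13 and 12.98. HPT1, a purine salvage gene, was 4.54-fold higher. INO2, which codes for the activator of phospholipid genes, read 8.29 and 11.42, an 8.77-fold difference, yet the 22 phospholipid genes had a median of 0.16, or 0.03 corrected for length. UPC2, which codes for a sterol regulator, was the single ergosterol gene past 2-fold, at 2.52-fold, with 24 of 31 above 0 and a median of 0.28, or 0.29 corrected for length.

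Among genes for other nutrients, the list of hypoxic and seripauperin genes had the highest median of the lists with over 20 members, 0.51 over 28 genes (0.64 corrected for length), with 4 higher (14.3%, against 6.7% of all genes) and 0 lower. The ADP carrier gene AAC3 read 8.50 and 10.95, the repressor gene MOT3 7.98 and 9.83, and ANB1, the hypoxic form of a translation factor gene, 8.79 and 10.34. TIR4, a wall mannoprotein gene, was 5.35-fold higher. Seripauperin genes are near-identical, and several were read from probe sets marked for shared sequence. Copper and zinc genes had 17 of 18 members above 0 (median 0.45, or 0.53 corrected for length) and 2 past 2-fold, the wall protein gene ZPS1 (4.05-fold) and IZH1 (2.44-fold). PHM8, a phosphatase gene of the phosphate response, was 6.71-fold higher.

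Cell wall genes had 6 of 42 members higher (14.3%, against 6.7% of all genes) and 0 lower, with a median of 0.20, or 0.13 corrected for length. UTR2, a crosslinking enzyme gene, read 9.31 and 10.64 at 40 °C, while at 30 °C it read 13.03 and 8.98. The mannoprotein gene CWP1, the glucanosyltransferase gene GAS1, the chitin synthase genes CHS1 and CHS3 and the kinase gene SLT2 were between 2.01-fold and 2.10-fold higher. After correction for length 3 of 42 members were past 2-fold, a share near that of all genes.

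Pheromone response genes had a median of 0.38 over 27 members (0.37 corrected for length), with 4 higher (14.8%, against 6.7% of all genes) and 0 lower. PRM7 was 12.1-fold higher (7.78 and 11.38), though its other probe set differed from this one by 1.48 log2 units. FIG1, which acts in mating, was higher by 2.26 log2 units. PRM1, which acts in cell fusion, read 7.41 and 9.07, and FUS2 8.95 and 10.08. Of 26 cyclins and regulators 3 were higher (11.5%) and 0 lower, led by the G1 cyclin gene PCL1 (3.93 and 7.30, a 10.3-fold difference). PEA2, a gene of the polarisome that guides bud growth, read 8.99 and 13.73, a 26.6-fold difference. PAC1, which acts in dynein-driven movement of the nucleus, read 7.51 and 12.68, a 35.9-fold difference, while the other 29 genes of its list held 1 higher and 2 lower. ADA2, a coactivator gene, was 7.35-fold higher among 20 genes of its complexes, of which no other passed 2-fold. DOC1, an anaphase-promoting complex gene (7.25 and 5.12), and DAD4, a kinetochore gene (13.31 and 11.47), were lower.

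Genes of meiosis and the spore wall, which are low in growing haploid cells, held several members that were higher on the array labelled hsp30Δ. Of 35 early meiosis genes 8 were higher (22.9%, against 6.7% of all genes) and 0 lower, with a median of 0.37, or 0.36 corrected for length. This median turned to -0.03 after quantile normalization. The early meiosis genes are dim, with a median level of 7.34 on BY4741 40 °C. In the dimmest of the 5 level bins (1.96 to 9.41), 13.8% of genes were higher and 4.14% lower, so 6.7% understates the background here. Of 37 genes of later sporulation and the spore wall 9 were higher (24.3%) and 2 lower (5.41%, against 3.59% of all genes), with a median of 0.43. After quantile normalization it was 0.22, and corrected for length 0.51. The median level of these later genes on BY4741 40 °C was 7.95, also in the range of the dimmest bin. OSW1, a spore wall gene, read 3.12 and 9.35 at 40 °C and 2.16 and 10.25 at 30 °C. SPS100 (8.21 and 10.76) and OSW2 (7.95 and 10.42), for other spore wall proteins, were 5.89-fold and 5.56-fold higher. NDT80, the activator of middle sporulation genes, read 9.05 and 7.07, and the spore aquaporin gene AQY1 10.04 and 7.85, both lower. Over the fixed list of 12 sporulation markers the levels lay between 3.12 and 9.42 on BY4741 and between 5.59 and 9.35 on the array labelled hsp30Δ, with 4 higher and 1 lower. Bulk RNA cannot tell a change of these RNAs in all cells from a change in some of the cells.

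Short reading frames with suffixed systematic names, many of them added to the annotation late, made up 9 of the 25 highest genes. Of 135 measured, 42 were higher (31.1%, against 6.7% of all genes) and 6 lower (4.44%, against 3.59%), with a median of 0.39. After quantile normalization the median was 0.18, and corrected for length 0.54. The median level of these frames on BY4741 40 °C was 7.04, in the range of the dimmest level bin. In that bin 13.8% of genes were higher and 4.14% lower, so 6.7% understates the background for these frames as well. YBR182C-A read 3.02 and 9.84 and YML054C-A 3.12 and 9.24, YOR032W-A 6.13 and 11.25, and YDR246W-A 6.28 and 11.22. The last pair lay well above the fission yeast values on BY4741, but the first pair read little more than 2.61 there, the top value among fission yeast probe sets at 40 °C, so their sizes are not exact. Genes known by a systematic name alone were 91 of the 364 higher genes and 16 of the 195 lower, and they were 9.02% of all genes. Among them YPR015C, an uncharacterized gene, read 8.43 and 13.88, a 43.5-fold difference, and YOL014W 8.49 and 12.82, a 20.1-fold difference, against 11.11 and 11.47 at 30 °C. BSC1 (2.39 and 8.07), YJR151W-A (1.97 and 6.39) and YBL071C-B (2.36 and 6.43) were under 2.61 on BY4741 and get no fold. In all, 14 of the 364 higher genes were at or under that level on BY4741.

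Some called genes lay side by side on their chromosomes. Of 4987 pairs of adjacent measured genes 66 were past 2-fold at both members: 47 pairs were both higher, 5 both lower and 14 opposite. These counts are a description with no test. The shares over all genes, 6.7% higher and 3.59% lower, are of single genes, and no background share was worked out for pairs. Whether adjacent genes were called together more often than other pairs was therefore not tested. SIP4 and ARG3, both among the 25 highest genes, are neighbours on chromosome X (4.30 and 6.61). YOR268C and PAC1 on chromosome XV (3.86 and 5.17) and SMP1 and YBR182C-A on chromosome II (2.74 and 6.82) were others. PRM7 (3.60) lies beside BSC1 on chromosome IV, for which no size is given. YOR302W, the upstream reading frame that codes for the CPA1 leader peptide, was higher beside CPA1 (2.56 and 2.08), as was TDA6 beside CUR1 on chromosome XVI (2.18 and 3.64). CIT3 and PDH1 were both lower (-1.75 and -1.62). HTL1, the neighbour of HSP30 on chromosome III and a chromatin remodelling gene, was lower beside it (-1.10 and 1.74), at 6.87 and 5.77. Corrected for length the difference of HTL1 was -0.83, within 2-fold. No chromosome stood apart, with medians between -0.05 and 0.08.

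The strain difference at 30 °C, from the other pair of arrays, was wider, where the array labelled hsp30Δ held 1262 genes (23.2%) called higher and 1160 (21.4%) called lower. The 2 comparisons share no array. Of the 364 genes higher at 40 °C, 239 (65.7%) were also higher at 30 °C, 22 were lower and 103 were within 2-fold. Of the 109 genes at least 4-fold higher at 40 °C, 90 (82.6%) were higher at 30 °C. The genes lower at 40 °C were spread otherwise: of 195, 57 (29.2%) were also lower at 30 °C, 37 (19.0%) were higher and 101 were within 2-fold. Among genes within 2-fold at 40 °C, 20.2% were higher and 22.2% lower at 30 °C. Read from the other side, the genes called in the same direction at 40 °C were 18.9% of those higher at 30 °C and 4.91% of those lower.

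The leading genes showed these patterns. Of the 25 highest at 40 °C, 22 were also higher at 30 °C, while YFR057W and MIG2 were lower and YOL014W was within 2-fold. YFR057W read 2.92 and 7.46 at 40 °C and 7.21 and 2.28 at 30 °C, so it was high on BY4741 30 °C and on the array labelled hsp30Δ 40 °C. Of the 25 lowest, 12 were higher at 30 °C and 7 were lower, and 7 belonged to the list of gluconeogenesis and related genes. ICY1, a gene of unknown function and the lowest outside the carbon lists, read 14.43 and 12.02 at 40 °C and 13.97 and 13.34 at 30 °C. Genes that were within 2-fold at 30 °C and apart at 40 °C included RPC17 (0.18 and 2.99), MRT4 (0.25 and 2.77), PCL1 (0.48 and 3.36) and ILV2 (0.04 and 1.85), given as the log2 difference at 30 °C and then at 40 °C. For these the array that stood apart was BY4741 40 °C, which was the lowest of the 4 arrays for each.

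**Figure D5:**
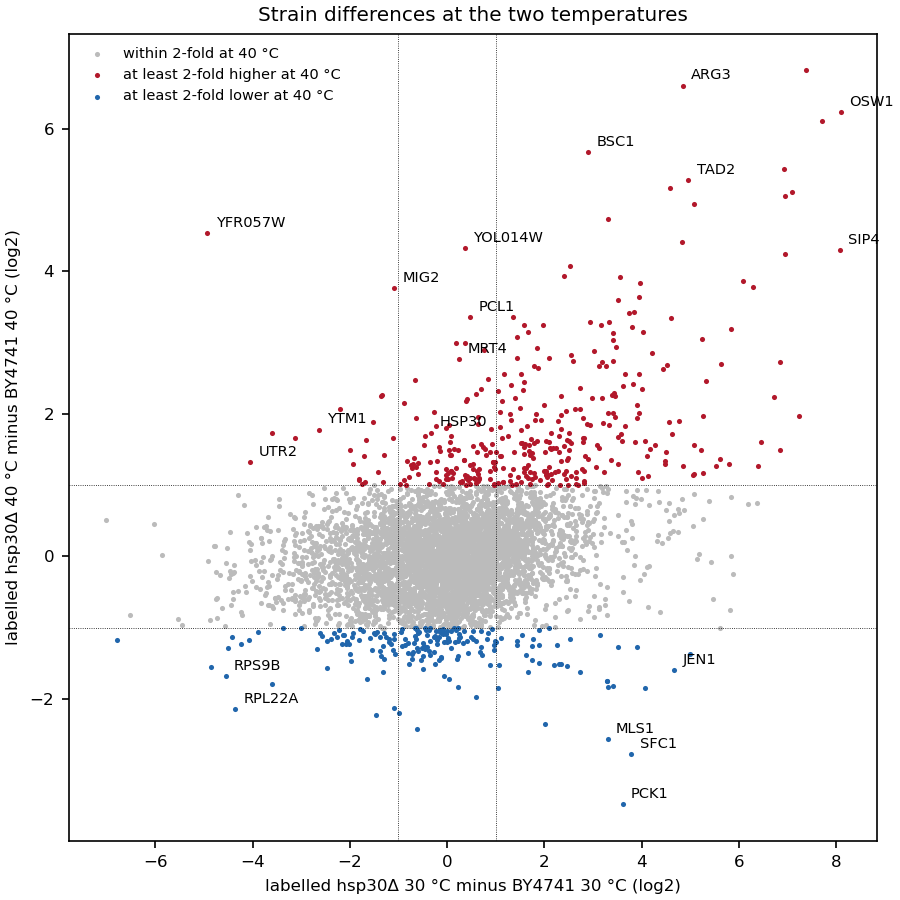
Difference between the strains at 30 °C (horizontal axis) and at 40 °C (vertical axis), each the array labelled hsp30Δ minus BY4741 in log2 units, with 1 point a gene and dotted lines at 2-fold. Coloured points are at least 2-fold apart at 40 °C. Most of the highest genes lie to the right, also higher at 30 °C, while PCK1, SFC1, MLS1 and JEN1 lie at the lower right, higher at 30 °C and lower at 40 °C.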

How the data were processed

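The authors deposited 1 table of normalized log2 expression values for 5802 probe sets on 4 arrays, 1 a group. Per the submitters' processing notes it was made with GCRMA and MAS5, whose versions, roles and order are not given in the sources used here. The deposited log2 values were used without further scaling. Probe sets were named from the platform annotation and a RefSeq gene table, with 5483 paired with 1 gene each, 287 unnamed and 32 of fission yeast. Of several probe sets for a gene, the 1 with the top mean level was read, so that 118 genes rest on probe sets marked for shared sequence.

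Values under 1.96, a floor set at the 95th percentile among fission yeast probe sets (median over arrays), were raised to it, and genes above it on at least 1 array were kept. The difference at 40 °C is hsp30Δ minus BY4741, and a gene is counted from 2-fold on. The number of arrays limits the precision, and no test was made. No fold is given where the lower value is at or under the highest fission yeast probe set. The calculations used Python 3.11.15, pandas 2.3.3 and statsmodels 0.14.6, and were tested on simulated data.

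The gene lists (77), the naming rule and the comparison were chosen with earlier results of these data known. Named genes are the 25 highest, the 25 lowest, up to 6 members of each list and every member past 2-fold. Neighbours both past 2-fold and 14 genes always named are included as well. The text takes its examples from these, and a few further genes (HSP104, PDR5, RPL22B, RPS14A, YRO2, MRH1, MIG1, ADR1, TPO2) were chosen after their values were seen. Tried as alternatives were quantile, median and lowess scaling, other floors and filters, other choices of probe set and, added after seeing the data, a lowess correction for gene length. A search of promoters for factor motifs was planned and not run, since no promoter sequence was at hand. No genome build is named in the sources used here, so no coordinates are given.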

Additional observations from a re-analysis of the deposited data

Results flagged for a closer look

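Of all genes, 59 were at least 2-fold apart at both temperatures in opposite directions, and the 46 of them that the naming rule covers are given here as the strain difference at 40 °C minus that at 30 °C, in log2 units. With 1 array a group this difference was not tested. The 59 held 37 of the 195 genes lower at 40 °C (19.0%, where 23.2% of all genes were higher at 30 °C). They held 22 of the 364 genes higher at 40 °C (6.04%, where 21.4% of all genes were lower at 30 °C). Neither share was above that over all genes. Lower at 40 °C and higher at 30 °C on the array labelled hsp30Δ were, in carbon and fat metabolism, PCK1 (-7.08), SFC1 (-6.57), JEN1 (-6.27), RGI2 (-5.91), MLS1 (-5.86), ICL1 (-5.23), CIT3 (-5.03), SHH3 (-5.03), FBP1 (-4.38), PDH1 (-4.35), YAT2 (-4.25), POT1 (-4.003), AGX1 (-3.68), SHH4 (-3.28) and ACS1 (-2.68). Genes of stress, storage and defence in the same direction were CTA1 (-5.17), SIP18 (-3.81), PAI3 (-3.004), GTO3 (-2.99), GRE1 (-2.90) and GLG2 (-2.21). Also in that direction were YML083C (-5.14), SUE1 (-4.77), SUL1 (-3.72), GDH3 (-3.50), YGR174W-A (-3.40), FIT2 (-3.20), YPL119C-A (-2.91) and SNO1 (-2.59).

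Higher at 40 °C and lower at 30 °C were YFR057W (9.48), whose value of 2.28 on the array labelled hsp30Δ 30 °C is under the highest fission yeast probe set, so that its size is not exact, its neighbour IRC7 (4.79), and the repressor gene MIG2 (4.85). In ribosome assembly and the ribosome the same held for YTM1 (4.42), EMG1 (3.50), RPS9A (3.30), RPS14B (3.24) and NOC4 (3.12). Wall and mating genes of this kind were UTR2 (5.38), FIG1 (3.61), CWP1 (2.87), PRM1 (2.78) and GAS1 (2.77). The others were HOM3 (2.91), CYS3 (2.73), FAT1 (2.61) and ARO9 (2.38).

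Outside the named genes, 25 of the 287 probe sets with no gene name were at least 2-fold higher at 40 °C on the array labelled hsp30Δ (8.71%) and 12 were lower (4.18%), with differences from -1.63 to 3.56. Of the 32 fission yeast probe sets 0 were past 2-fold in either direction. No test was made of this count.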

How the results depend on the processing

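Over the 9 alternatives planned, the number of genes at least 2-fold higher lay between 322 and 364 and the number lower between 195 and 280, with both ends away from the deposited counts set by quantile normalization. The lowess correction for gene length, added after seeing the data, gave 102 lower genes in place of 195, with 108 of the 195 no longer past 2-fold, and 410 higher genes in place of 364, with 34 no longer past it. It turned the sign of 19 of the 77 list medians. Among these were 3 lists with at least 75% of members on 1 side of 0 as deposited: histones (0.0752), large-subunit ribosomal proteins (0.0047) and genes deleted in the parent, where HIS3 alone has a value (0.26). Quantile normalization turned 7 list medians, median centring 4, lowess on level 2 and the choice of probe sets with no suffix 1, and the other floors, filters and averaging of probe sets 0. The cause was not tested. Of 598 named genes, quantile normalization took 34 across the 2-fold line inward and 9 outward, and the correction for length 67 and 17. No named gene turned its sign while past 2-fold under any alternative run. No paired analysis was possible because each group is 1 array with no replicate number to share, and no array could be left out for the same reason. With 1 array a group, what would recur in another culture is not known. Among 45 genes with several probe sets, the probe sets differed by a median of 0.22 log2 units at 40 °C and by over 1 in HXT17, RPL18B, PRM7 and HXT13.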
